A study of Mus musculus with 8 samples.

Results

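The semaphorins, their plexin receptors and the neuropilin co-receptors were followed through single-nucleus RNA-seq of mouse primary visual cortex (V1). The members were all genes of the count table with a symbol of the form Sema followed by class 3 to 7 and a letter, Plxn followed by A to D, or Nrp1 and Nrp2. This gave 31 of 26711 features, of which 20 were semaphorins, 9 plexins and 2 neuropilins. Levels are UMI counts (counts of distinct RNA molecules) summed over the nuclei of 1 deposited cell type in 1 library and given per 1000000 UMIs of that sum (CPM).

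The mice were GR fl/fl, with both copies of the glucocorticoid receptor gene open to deletion by Cre, and received an AAV2/5 vector in V1 at birth, in which the astrocyte promoter GfaABC1D drove eGFP together with Cre (GR-KO) or with the inactive ΔCre (GR-Con). Mice were reared with a normal light cycle (NR) or in the dark (DR), and V1 was taken at postnatal day 21. Each of the 4 groups had 2 libraries, 1 from a male and 1 from a female mouse. The authors sorted the nuclei as positive for the DNA dye DRAQ5 and negative for GFP, and the sample is therefore a gated one. The eGFP of this vector was the CAAX form, not the nuclear-membrane KASH form of the study's bulk assays. Vector transcripts were still found in the sorted astrocyte nuclei, with 64 to 192 EGFP UMIs in each library.

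Semaphorins are secreted or membrane-bound guidance proteins that steer axons and dendrites and shape synapses. Most bind plexins, which pass the signal to small GTPases and the cytoskeleton, while the secreted class 3 proteins mostly need a neuropilin as the binding partner of an A-type plexin. Sema3E binds Plexin-D1 directly, Sema7A binds Plexin-C1, and the class 4 proteins mainly use B-type plexins. In cortex the family is known for ordering axon tracts and dendrites in development and for pruning and placing synapses later.

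Libraries held 9517 to 15161 nuclei and 168632129 to 288774016 UMIs, with a median of 14861 to 29223 UMIs per nucleus. The median (male then female) was 17759.5 and 15884 in NR GR-Con and 22827.5 and 29223 in NR GR-KO. In DR GR-Con it was 16968 and 20161, and in DR GR-KO 14928.5 and 14861. Depth thus differed between the groups, with NR GR-KO the deepest, and its part in the comparisons was not tested. Of 64 marker genes, 57 were highest in the type they mark, and 7 were highest elsewhere: both L6IT markers (Sulf1 and Oprk1), 2 of the 3 L4 markers (Rorb and Rspo1, both highest in astrocytes), 2 of the 3 L5PT markers (Bcl6 and Pou3f1) and Rasgrf2 of L2/3. Microglia were nearly absent from 3 libraries (2, 4 and 4 nuclei in NR GR-Con male, NR GR-KO male and DR GR-Con female, against at least 573 in the others) and entered no comparison. DR GR-Con female also held 5 endothelial nuclei, 1 smooth muscle or pericyte nucleus and 3 vascular leptomeningeal (VLMC) nuclei. Libraries shared 1220 of 101098 barcode sequences. The targeted gene, Nr3c1, was not lower in GR-KO astrocytes, at 268 to 284 CPM in the 4 GR-KO libraries and 207 to 263 in the 4 GR-Con libraries, without overlap. Where these 3′ reads lie relative to the deleted part is not given in the sources used here, so the level is no check of the deletion. Cre transcripts matched the labels, with 0 UMIs in every GR-Con library and 43 to 86 UMIs in the astrocytes of each GR-KO library. The excitatory neurons of the GR-KO libraries also held 109 to 840 Cre UMIs. Per UMI this was less than in astrocytes, at 0.745 to 3.70 CPM against 4.14 to 10.4 CPM. EGFP in the same libraries was at 0.265 to 0.965 CPM in excitatory neurons and 8.63 to 23.4 CPM in astrocytes. A sum over nuclei cannot tell a lower level per nucleus from a smaller share of expressing nuclei.

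Promoters from RefSeq (GRCm38.p6, 250 bases before to 50 after the start) were found for 26 of the 31 genes, in 37 windows. Plxna1, Plxna4, Sema3b, Sema3f and Sema6a had no window in the table used here. The windows of 4 genes that moved with dark rearing are shown, because they differ widely in base composition. They lie at chr8:128358823-128359122 (Nrp1), chr1:62703067-62703366 (Nrp2), chr5:13396534-13396833 (Sema3a) and chr16:35541112-35541411 (Sema5b), all on the plus strand. The Sema3a window is not at the 5′ end of the gene: it lies within the GENCODE span of Sema3a (chr5:13125414-13602565), at a RefSeq transcript start inside the gene. Capitals mark the GC box GGGCGG on either strand, and overlapping copies run together.
Nrp1: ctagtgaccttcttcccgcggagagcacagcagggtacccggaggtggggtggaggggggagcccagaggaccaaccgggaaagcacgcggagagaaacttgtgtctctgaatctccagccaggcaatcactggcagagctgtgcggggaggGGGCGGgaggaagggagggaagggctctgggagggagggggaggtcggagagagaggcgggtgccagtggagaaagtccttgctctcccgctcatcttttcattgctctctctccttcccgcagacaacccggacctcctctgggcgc
Nrp2: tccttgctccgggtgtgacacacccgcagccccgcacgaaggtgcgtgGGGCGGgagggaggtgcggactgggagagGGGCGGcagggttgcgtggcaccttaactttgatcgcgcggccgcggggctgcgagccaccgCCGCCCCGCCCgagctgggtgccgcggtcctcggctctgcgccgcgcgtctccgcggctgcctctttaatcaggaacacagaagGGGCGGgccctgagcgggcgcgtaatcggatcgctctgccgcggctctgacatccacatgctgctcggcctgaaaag
Sema3a: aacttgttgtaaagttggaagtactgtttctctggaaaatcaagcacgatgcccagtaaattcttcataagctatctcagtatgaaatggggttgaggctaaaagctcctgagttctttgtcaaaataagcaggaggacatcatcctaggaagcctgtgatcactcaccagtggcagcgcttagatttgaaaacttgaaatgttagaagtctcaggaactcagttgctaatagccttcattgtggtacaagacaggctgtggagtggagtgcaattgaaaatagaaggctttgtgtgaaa
Sema5b: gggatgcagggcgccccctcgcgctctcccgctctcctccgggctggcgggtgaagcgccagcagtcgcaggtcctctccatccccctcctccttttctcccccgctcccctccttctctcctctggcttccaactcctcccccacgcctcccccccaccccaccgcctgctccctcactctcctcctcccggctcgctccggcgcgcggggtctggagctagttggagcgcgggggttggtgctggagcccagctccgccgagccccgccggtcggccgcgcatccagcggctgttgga
The GC content was 64% for Nrp1, 70.7% for Nrp2, 41.3% for Sema3a and 73% for Sema5b. Nrp2 held 5 GC boxes, Nrp1 held 1, and these letters were not in the Sema3a and Sema5b windows. Over the family, 27 of 37 windows held a GC box, against 35.7% of 32851 RefSeq windows of the same length, and the median GC content was 63.7% against 52.7%. The activity-linked motifs CRE (TGACGTCA) and AP-1 (TGANTCA) were in 0 and 3 windows (Sema4c, Sema4d and Sema6b for AP-1), against 1.79% and 7.81% of all windows. The E-box CACGTG was in 3 (Sema3e, Sema4b and Sema6d) against 7.15%, the letters TATAAA in 0 against 13.6%, and the letters AGAACA, part of the GR motif, in 8 against 19%.

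The first question was which cells carried each gene. Glia were the highest class for 15 members, vascular cells for 8, inhibitory neurons for 5 and excitatory neurons for 3. These counts depended on the scaling: with TMM-scaled CPM they were 14, 5, 5 and 7, because Sema3a and Plxna2 moved from VLMC to L6CT, Plxnd1 from endothelium to L4, Plxna1 from Sst to L5PT and Sema4g from microglia to Pvalb neurons. Levels differed strongly between types: the median of tau, an index from 0 (even over types) to 1 (a single type), was 0.791 over the 31 members and 0.693 over 20018 features of at least 1 CPM in some type. The most restricted member was Sema3g, a class 3 semaphorin of endothelium, with a tau of 0.995, and the most even was Sema6b, with 0.352. Sema3g rested on 116 UMIs and Sema3b on 325, while Sema6d, the most counted, had 1109180. Means ± SD are over libraries with at least 10 nuclei of the type. Neuronal RNA was also present outside neurons: 7 neuronal markers summed to 2904 to 7724 CPM in endothelial and 985 to 9051 CPM in VLMC nuclei, against 267 to 1154 in astrocytes, oligodendrocytes and OPC. Here and below, such a sum can follow mainly 1 gene. In excitatory neurons Kcnip4 was at 9854 CPM, against 153 to 572 for the other excitatory markers. The part of neuronal RNA in the vascular levels of genes that neurons also carry, such as Sema3a, Plxna2, Plxnd1 and Nrp1, was not tested.

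**Figure D1:**
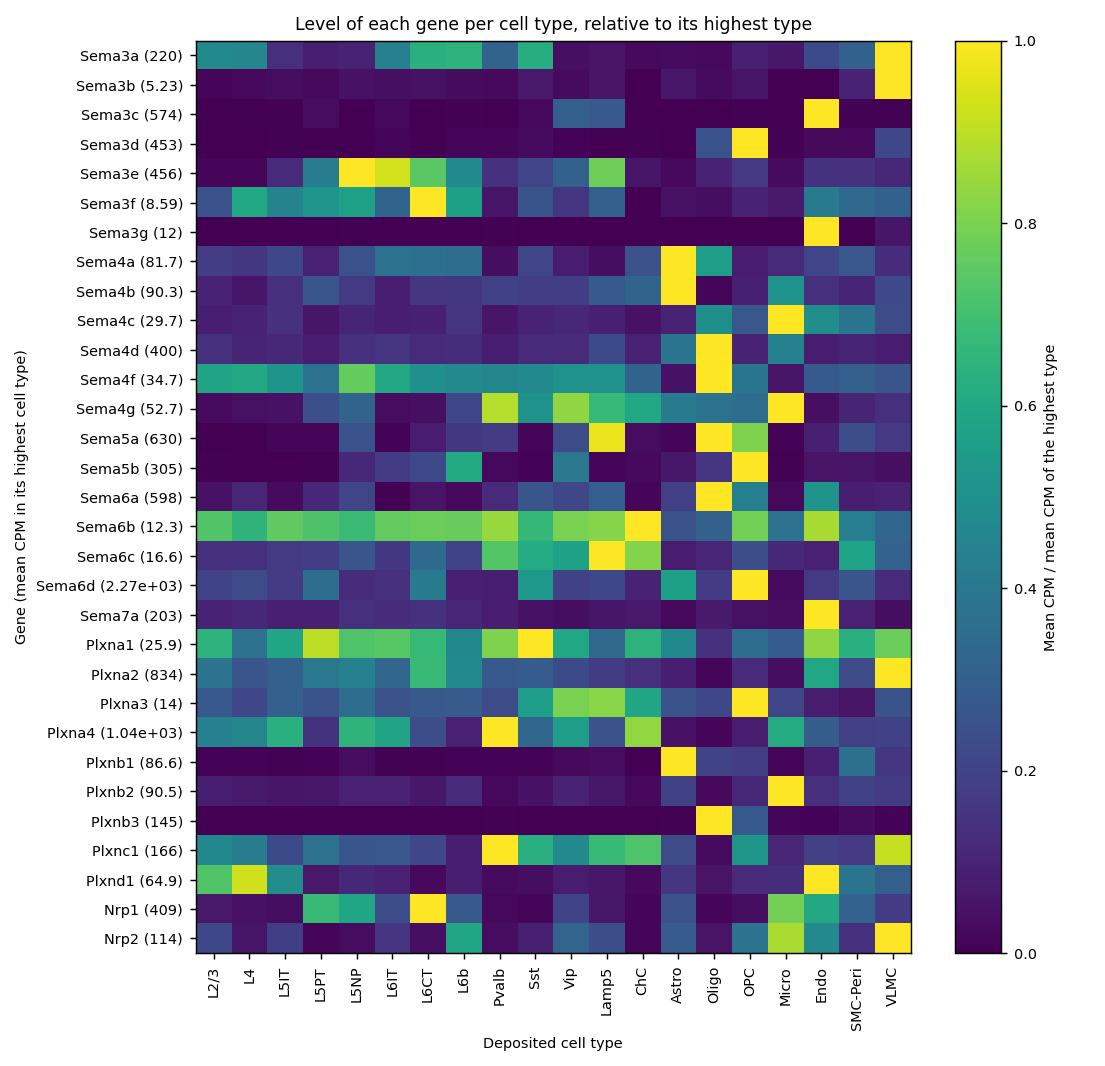
Mean CPM of each member (rows) in each deposited cell type (columns), divided by the mean of that member's highest type, which is printed beside its name. Rows are comparable along a row only. Most class 3 and class 5 to 7 semaphorins have 1 or a few bright types, while Sema6b and Plxna1 are spread over many.

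Among the secreted class 3 semaphorins, Sema3a, the prototype repellent, was highest in VLMC (220 ± 116 CPM, n = 7), followed by L6b (143 ± 33.9, n = 8), L6CT (140 ± 48.0, n = 8) and Sst neurons (137 ± 20.9, n = 8). VLMC exceeded L6b in 4 of 7 libraries, so the order of these types was not settled. Sema3c marked endothelial nuclei (574 ± 154, n = 7), which exceeded the next type, Vip neurons (173 ± 15.0, n = 8), in 7 of 7 libraries. Sema3d was highest in oligodendrocyte precursors (OPC; 453 ± 51.8, n = 8), above oligodendrocytes (113 ± 12.5) in 8 of 8 libraries. Sema3e, the ligand of Plexin-D1, was uneven over neuron types: L5NP (456 ± 105, n = 8), L6IT (424 ± 72.9), Lamp5 neurons (355 ± 81.9) and L6CT (339 ± 43.5) led, and L2/3 was lowest at 6.09. L5NP and L6IT did not separate, since L5NP was the higher in 6 of 8 libraries. Sema3f was low everywhere, with 8.59 ± 2.62 CPM in L6CT, its highest type, in 8 of 8 libraries above L4 (5.16 ± 1.36). Sema3g and Sema3b had their highest levels in endothelium (12.04 ± 10.5 CPM, n = 7) and VLMC (5.23 ± 3.11, n = 7), with at most 0.748 and 0.515 CPM on average in any other type. These are levels, not shares of the counted molecules.

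The membrane-bound class 4 semaphorins were all led by a glial type. Sema4a (81.7 ± 5.84 CPM, n = 8) and Sema4b (90.3 ± 28.1, n = 8) were highest in astrocytes, Sema4d (400 ± 44.0, n = 8) and Sema4f (34.7 ± 5.62, n = 8) in oligodendrocytes, and Sema4c (29.7 ± 2.44, n = 5) and Sema4g (52.7 ± 11.1, n = 5) in microglia. Sema4a in astrocytes exceeded oligodendrocytes (45.7 ± 6.96) in 8 of 8 libraries, and Sema4d in oligodendrocytes exceeded microglia (176 ± 6.11) in 5 of 5. Sema4g was almost as high in Pvalb neurons (46.8 ± 2.72, n = 8), below microglia in 4 of 5 libraries.

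In classes 5 to 7, the oligodendrocyte lineage led for Sema5a, Sema5b, Sema6a and Sema6d. Sema5a was at 631 ± 106 CPM in oligodendrocytes, 612 ± 76.9 in Lamp5 neurons and 508 ± 31.5 in OPC (n = 8 each), and the first exceeded Lamp5 in 4 of 8 libraries. Sema5b was highest in OPC (305 ± 41.0, n = 8), above L6b (186 ± 41.8) in 8 of 8 libraries. Sema6a peaked in oligodendrocytes (598 ± 52.5, n = 8), with endothelium next (310 ± 82.0, n = 7). Sema6d, a transmembrane ligand of Plexin-A1, was at 2265 ± 194 CPM in OPC, 1287 ± 221 in astrocytes and 1212 ± 161 in Sst neurons (n = 8 each). Sema7a, a GPI-anchored semaphorin, stood at 203 ± 51.4 CPM in endothelium (n = 7) and at 29.0 ± 4.26 in L6CT, the next type. Sema6b (12.3 ± 7.23, n = 3) and Sema6c (16.6 ± 2.66, n = 8) were low and led by chandelier and Lamp5 neurons. The chandelier value of Sema6b rested on 1, 3 and 3 UMIs in 11, 10 and 14 nuclei of 3 DR libraries, and endothelium led without DR GR-KO male or without DR GR-KO female. Sema6c was led by chandelier neurons without DR GR-Con female or without DR GR-KO female.

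The A-type plexins, the receptors of the neuropilin complexes, had no leading class in common: Plxna4 was highest in Pvalb neurons (1036 ± 57.8 CPM, n = 8), Plxna1 in Sst neurons (25.9 ± 4.01, n = 8), Plxna2 in VLMC (834 ± 312, n = 7) and then L6CT (564 ± 40.7, n = 8), and Plxna3 in OPC (14.0 ± 2.57, n = 8). Plxna1 was the most even of them, and Sst exceeded L5PT in 5 of 8 libraries. The B-type receptors each had 1 leading glial type, Plxnb1 in astrocytes (86.6 ± 11.7, n = 8), Plxnb2 in microglia (90.5 ± 6.10, n = 5) and Plxnb3 in oligodendrocytes (145 ± 12.97, n = 8). Plxnc1 was highest in Pvalb neurons (166 ± 7.96, n = 8) but exceeded VLMC (151 ± 44.5) in 4 of 7 libraries. Plxnd1 was shared by endothelium (64.9 ± 13.1, n = 7) and the upper-layer neurons L4 (60.3 ± 9.04, n = 8) and L2/3 (47.4 ± 11.7, n = 8), and endothelium exceeded L4 in 4 of 7 libraries.

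The neuropilins had different leading types, with microglia second for both. Nrp1 was highest in L6CT neurons (409 ± 55.1 CPM, n = 8), then microglia (324 ± 29.6, n = 5), L5PT (277 ± 50.0, n = 8), endothelium (248 ± 81.6, n = 7) and L5NP (240 ± 41.2, n = 8), and it was at 6.26 in Sst neurons. Nrp2 was led by VLMC (114 ± 55.7, n = 7), microglia (99.4 ± 13.1, n = 5) and L6b (67.1 ± 27.9, n = 8), and VLMC exceeded microglia in 3 of 5 libraries.

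Ligands and receptors known to pair were often highest in different types. For Sema3a, Nrp1 and Plxna4 the leading types were VLMC, L6CT and Pvalb, and for Sema3e and Plxnd1 they were L5NP and endothelium, with L4 next for Plxnd1. Among the genes named here and below, the leads of Sema3a, Sema3e, Sema5a, Sema6c, Nrp2, Plxna1, Plxnc1 and Plxnd1 were not settled. With TMM scaling Sema3a shared L6CT with Nrp1 as the leading type, and Plxna2 moved there too. The same scaling moved Plxna1 to L5PT, Sema3e to L6IT and Plxnd1 to L4. Sema3c peaked in endothelium, where Nrp1 and Nrp2 stood at 248 and 53.6 CPM. Sema3f peaked in L6CT, while Nrp2 led in VLMC and Plxna3 in OPC. Sema4a and its receptor Plxnb1 shared astrocytes as the leading type, and Sema4c and Plxnb2 shared microglia, whereas Sema4d led in oligodendrocytes. Sema5b and Plxna3 both led in OPC, Sema5a in oligodendrocytes and Plxna1 in Sst neurons. Sema6a (oligodendrocytes) and its receptors Plxna2 and Plxna4 (VLMC and Pvalb) differed, as did Sema6c and Sema6d (Lamp5 and OPC) from Plxna1 (Sst), and Sema7a (endothelium) from Plxnc1 (Pvalb).

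The second question was what dark rearing did. The comparison over both genotypes had 4 DR against 4 NR libraries, with genotype as a term. By the edgeR likelihood ratio test, Sema4a, Sema4b, Sema4d, Sema4g, Sema5a and Sema5b rose in 1 or more excitatory neuron types. So did Sema3f, Plxna1, Plxna3, Plxnb2, Plxnc1 and Plxnd1. Nrp1 rose in L4, and Sema3a fell in 6 types. Nrp2 fell in L2/3 and L4 and rose in L6CT and Lamp5 neurons. Several of these calls failed the edgeR quasi-likelihood test or were lost without 1 library, as given below. Of 411 pairs of member and cell type tested by the edgeR likelihood ratio test, 46 passed an adjusted p of 0.05, 35 higher and 11 lower in DR. The shares over all 217689 pairs of gene and type were 5.24% called, 2.62% higher and 2.63% lower. The edgeR quasi-likelihood test, which called fewer pairs in this comparison, called 25 member pairs, all of them also called by the first test, against 3.30% of all pairs. Excitatory neurons held 38 of the 46 calls (29 higher, 9 lower; 38 of 224 member pairs, against 7.65% of all pairs in these types). Inhibitory neurons held 4 of 105 (2.01% of all) and glia 4 of 82 (2.23% of all). The median log2 fold change over all member pairs was 0.124, beside -0.00497 over all pairs. Without the DR GR-KO male library, 23 pairs were called.

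**Figure D2:**
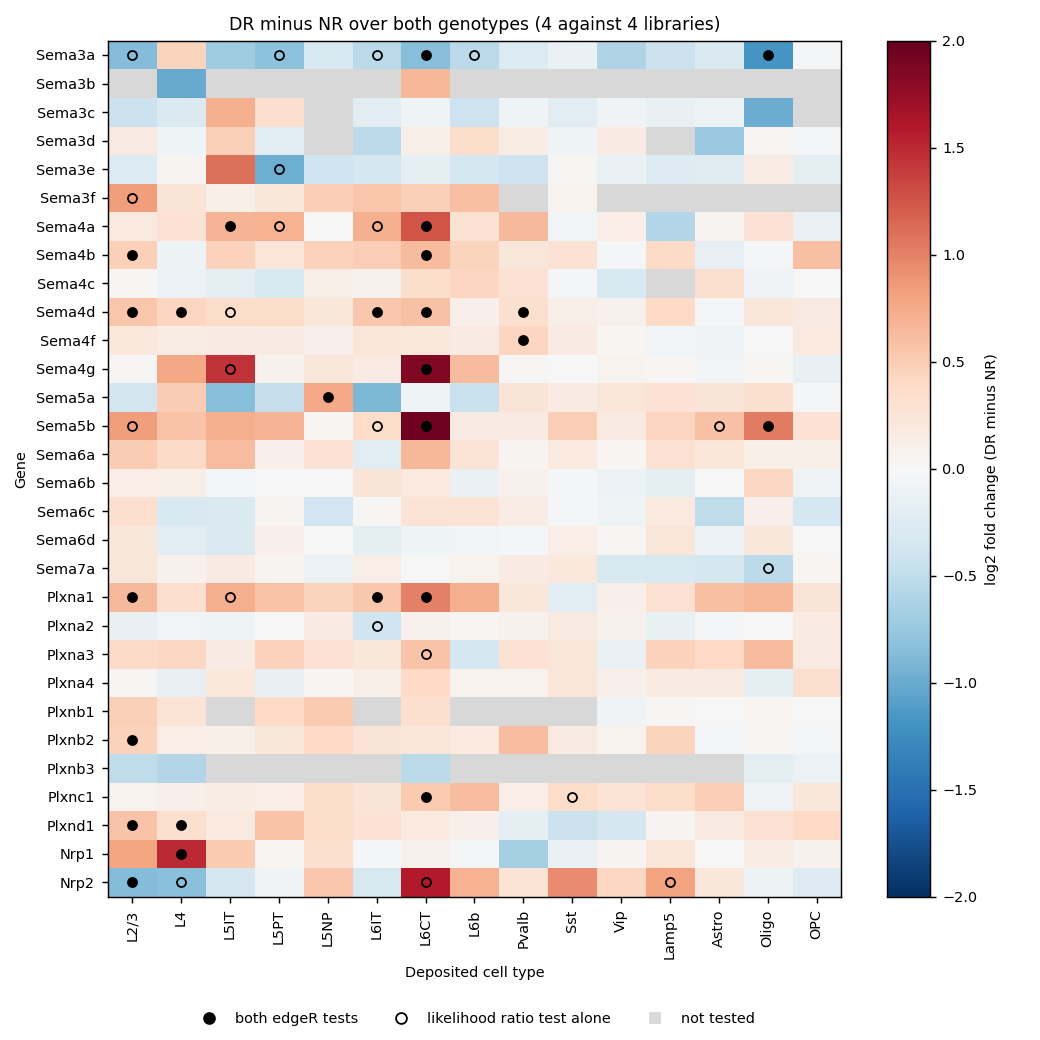
Log2 fold change of each tested member (rows) in each cell type (columns), DR minus NR over both genotypes, red for higher and blue for lower in DR. Filled dots mark the 25 pairs called by both edgeR tests, open dots those called by the likelihood ratio test alone, and grey cells were not tested. The L6CT column holds 10 dots, and the Sema4d and Sema3a rows hold 6 each, red for Sema4d and blue for Sema3a.

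Nrp1, the receptor of Sema3A, rose in L4, a type with little of it. Its level was 7.78 and 8.74 CPM in NR GR-Con (male then female, an order kept throughout), 14.2 and 10.6 in NR GR-KO, 16.7 and 26.1 in DR GR-Con, and 31.4 and 40.6 in DR GR-KO. All 4 DR libraries lay above all 4 NR libraries. Here and below, such a separation of a called pair comes from the libraries that gave the call and is no further evidence. The log2 fold change was 1.50 (SE 0.18, adjusted p = 1.31e-13, quasi-likelihood adjusted p = 0.00724), and it was 1.39 in GR-Con and 1.61 in GR-KO alone. The summed level of 3 L5NP markers in L4 nuclei moved with it, from 35.9 to 54.6 CPM in NR to 102 to 107 in DR, and L5NP is a type with high Nrp1. In L5NP nuclei most of this sum was Tshz2 (3596 CPM), with Lypd1 at 229.5 and Slc17a8 at 146.8 CPM. The sum of 3 L2/3 markers also separated, at 490 to 546 CPM in NR and 566 to 693 in DR. That of 2 L6CT markers did not, at 11.5 to 20.7 and 14.0 to 19.9 CPM. The part of these other types in the result was not tested.

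Nrp2, the co-receptor of Sema3F and Sema3C, fell in upper layers. In L2/3 it was at 44.2 and 28.8 CPM in NR GR-Con, 28.7 and 25.7 in NR GR-KO, 16.97 and 18.8 in DR GR-Con, and 16.2 and 17.5 in DR GR-KO, so DR and NR did not overlap. The log2 fold change was -0.86 (SE 0.16, adjusted p = 2.45e-06), and in L4 it was -0.84 (SE 0.24, adjusted p = 0.0107). In L6CT and Lamp5 neurons Nrp2 rose instead, by 1.59 (adjusted p = 0.00939) and 0.81 (adjusted p = 0.049) on the log2 scale. The L4, L6CT and Lamp5 calls did not pass the quasi-likelihood test and were lost without 1 library at a time: in L4 without DR GR-KO female (adjusted p = 0.0645) or DR GR-Con female (0.0588), in L6CT without DR GR-KO male (0.0579), NR GR-Con female (0.101) or NR GR-Con male (0.111), and in Lamp5 without any of 5 libraries (0.169 to 0.306).

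Sema3a was the member with most decreases. It fell in L6CT, from 174 to 190 CPM in the NR libraries to 69.2 to 135 in the DR libraries, with no overlap (log2 fold change -0.85, SE 0.21, adjusted p = 0.00179, quasi-likelihood 0.0357). The likelihood ratio test alone also called lower levels in L2/3 (-0.86), L5PT (-0.82), L6IT (-0.53) and L6b (-0.53). These 4 calls rested on single libraries: the L6IT call was lost without DR GR-KO male (adjusted p = 0.0558) and the L2/3, L5PT and L6b calls without any of 5 libraries each (adjusted p up to 0.105, 0.162 and 0.227). Sema3a was lower in DR in 7 of the 8 excitatory types, whether or not called, and L4 was the exception, at a log2 fold change of 0.44 that was not called. These types share the same libraries, and the share of all genes with such a run of signs was not counted. In oligodendrocytes, where Sema3a was at its lowest, it stood at 5.10 and 4.52 CPM in NR GR-Con, 9.57 and 10.2 in NR GR-KO, 2.46 and 3.01 in DR GR-Con, and 2.83 and 4.43 in DR GR-KO, with a difference of -1.17 on the log2 scale (SE 0.22, adjusted p = 3.74e-05). Neuronal markers in the same oligodendrocyte nuclei (7 genes summed) were at 321 and 267 CPM in NR GR-Con, 565 and 822 in NR GR-KO, 334 and 497 in DR GR-Con, and 327 and 333 in DR GR-KO, and their part in this result was not tested. Sema3e fell in L5PT (log2 fold change -0.98, SE 0.21, adjusted p = 0.000864), from 223 to 320 CPM in NR to 87.1 to 166 in DR, without passing the quasi-likelihood test (0.079). NR GR-KO female stood apart in L5PT, with 59 nuclei against 384 to 504 in the other libraries, and with Sema4g at 3.33 against 12.3 to 16.1 CPM and Sema3c at 5.92 against 16.2 to 29.2. Without it the Sema3e difference kept an adjusted p below 0.05, and that of Sema3a in L5PT was no longer called (-0.73, adjusted p = 0.0941). Sema3f rose in L2/3 by the likelihood ratio test alone (0.83, adjusted p = 0.0361, up to 0.185 with 1 library left out).

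**Figure D3:**
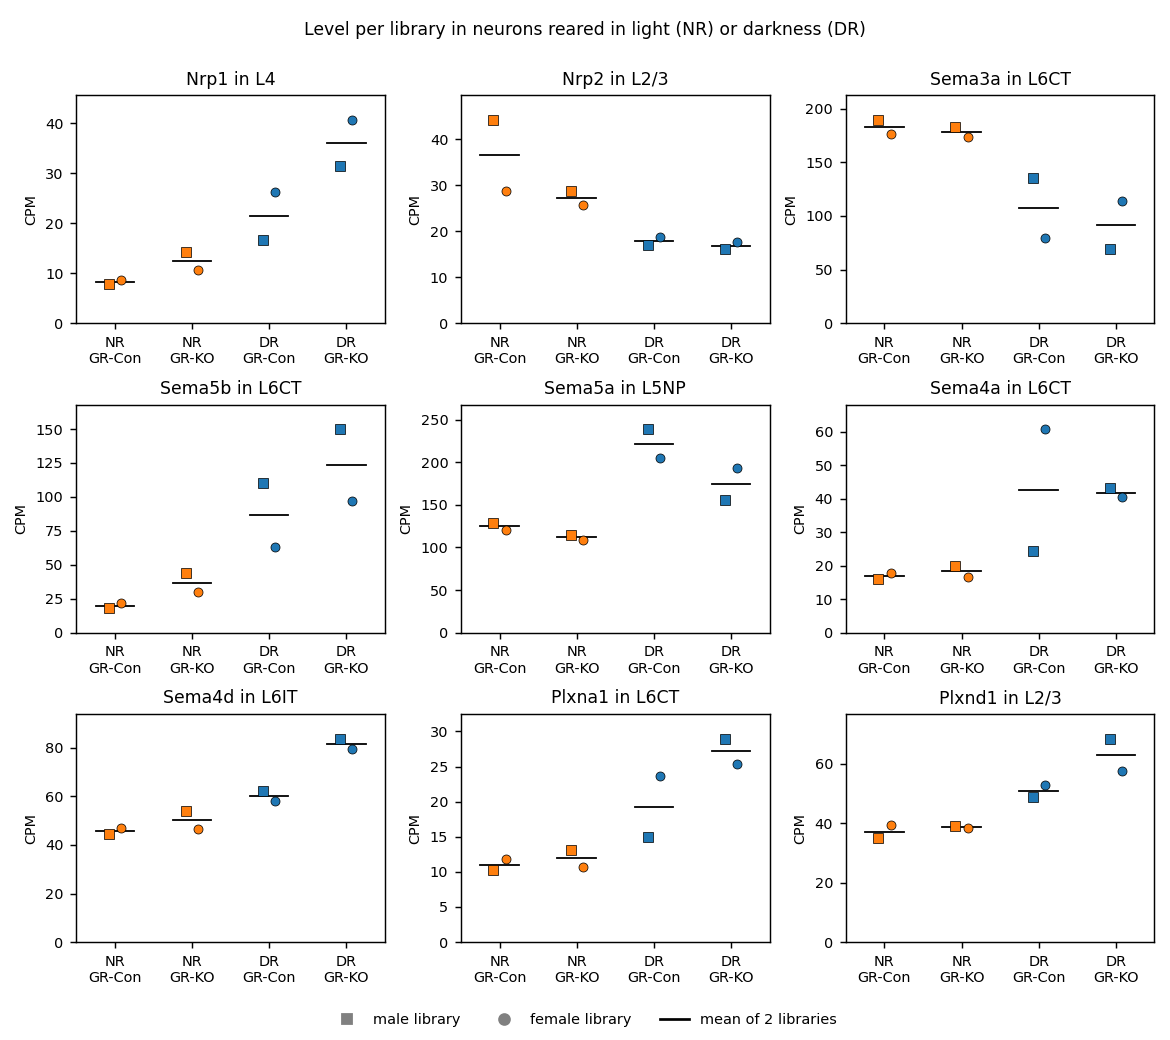
CPM of 9 pairs of gene and cell type in each library (squares male, circles female, orange NR, blue DR), with the mean of the 2 libraries of a group as a line. Nrp2 in L2/3 and Sema3a in L6CT lie lower in DR and the other 7 higher, and in each panel the DR libraries lie apart from the NR libraries. The 9 pairs were picked among those called on these libraries, so the separation is no further evidence.

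Sema4a, Sema4b, Sema4d and Sema4g rose in excitatory neurons. Sema4a, which can signal through Plexin-B1, stood in L6CT at 16.1 and 17.8 CPM in NR GR-Con, 20.0 and 16.6 in NR GR-KO, 24.5 and 60.8 in DR GR-Con, and 43.3 and 40.5 in DR GR-KO, a log2 fold change of 1.26 (SE 0.24, adjusted p = 8.24e-06). In L5IT it was at 12.9 to 14.8 CPM in NR and 18.5 to 27.4 in DR (0.67, SE 0.13, adjusted p = 7.89e-05). Both passed the quasi-likelihood test (0.0156 and 0.0311). The likelihood ratio test alone called Sema4a in L6IT (0.70) and L5PT (0.69), and both calls were lost without DR GR-KO male (adjusted p = 0.0521 and 0.0663), the L5PT call also without NR GR-Con male (0.103).

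Sema4d, the main ligand of Plexin-B1, was called in 6 types, as many as Sema3a, with higher levels in L2/3, L4, L5IT, L6IT, L6CT and Pvalb neurons. In L6IT its level was 44.5 and 47.0 CPM in NR GR-Con, 54.1 and 46.5 in NR GR-KO, 62.2 and 58.2 in DR GR-Con, and 83.8 and 79.7 in DR GR-KO. No DR library overlapped the NR ones there (log2 fold change 0.55, SE 0.11, adjusted p = 5.16e-05). The changes were of like size in L6CT (0.59), L2/3 (0.56) and L4 (0.43), smaller in L5IT (0.37) and Pvalb (0.32), and 5 of the 6 passed the quasi-likelihood test, L5IT being the exception (0.0771). The Pvalb and L5IT calls were lost without single libraries (adjusted p up to 0.0973 and 0.256), whereas the L2/3, L4, L6IT and L6CT calls kept an adjusted p below 0.05 without any 1 of the 8 libraries. Its level in oligodendrocytes, the highest type, was not called.

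Of the other class 4 members, Sema4b rose in L6CT (0.64, adjusted p = 0.00351) and L2/3 (0.48, adjusted p = 0.018) and Sema4f in Pvalb neurons (0.43, adjusted p = 0.00475), each by both tests. The L2/3 Sema4b call was lost without any of 5 libraries (up to 0.124) and the Sema4f call without DR GR-KO male (0.0635) or NR GR-Con male (0.0854). Sema4g rose in L6CT (1.86, SE 0.48, adjusted p = 0.00249) from a low level, 0.690 to 1.52 CPM in NR against 1.85 to 6.79 in DR, and in L5IT by the likelihood ratio test alone (1.44, adjusted p = 0.0233, up to 0.171 with 1 library left out). Sema4c was called in no type.

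The class 5 proteins, large transmembrane semaphorins that inhibit neurite growth in several systems, rose in particular neuron types. Sema5b in L6CT was at 17.9 and 22.1 CPM in NR GR-Con, 43.7 and 29.9 in NR GR-KO, 110 and 62.8 in DR GR-Con, and 150 and 96.9 in DR GR-KO. This was the largest change of the family among the pairs called over both genotypes, 1.94 on the log2 scale (SE 0.24, adjusted p = 3.11e-13, quasi-likelihood 0.00527), and DR did not overlap NR. Markers of OPC and L6b, types with more Sema5b, overlapped between DR and NR in L6CT nuclei (1.07 to 1.52 and 1.26 to 1.75 CPM for 2 OPC genes; 0.280 to 1.82 and 0.617 to 1.41 for 3 L6b genes). The part of these and other types with much Sema5b, such as Vip neurons (120.5 CPM), was not tested. Sema5b also rose in oligodendrocytes, from 16.9 to 38.4 CPM in NR to 52.4 to 71.6 in DR (1.03, SE 0.23, adjusted p = 0.000737). The likelihood ratio test alone called it in astrocytes (0.59), L2/3 (0.84) and L6IT (0.37), and each of these was lost without any of 4 to 6 libraries. Sema5a rose in L5NP, with 129 and 120 CPM in NR GR-Con, 115 and 109 in NR GR-KO, 239 and 205 in DR GR-Con, and 156 and 193 in DR GR-KO (0.76, SE 0.11, adjusted p = 3.86e-08). None of the class 6 members was called over both genotypes. Sema7a was lower in oligodendrocytes by the likelihood ratio test alone (-0.52, adjusted p = 0.041, up to 0.25 with 1 library left out).

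Among the receptors, Plxna1 rose in L6CT, L2/3, L6IT and L5IT. In L6CT its level was 10.2 and 11.9 CPM in NR GR-Con, 13.2 and 10.7 in NR GR-KO, 14.9 and 23.6 in DR GR-Con, and 29.0 and 25.4 in DR GR-KO, again without overlap (log2 fold change 1.00, SE 0.17, adjusted p = 3.44e-07). The changes were 0.65 in L2/3, 0.54 in L6IT and 0.73 in L5IT, and the L5IT call was lost under the quasi-likelihood test (0.0529) and without DR GR-KO male (0.0683). Plxna1 was higher in DR in all 8 excitatory types, from 0.34 to 1.00 on the log2 scale, with 4 called. These types come from the same 8 libraries and are not repeats of each other. The share of all genes with 1 direction over them was not counted. Plxnd1, the receptor of Sema3E, rose in L2/3, from 34.9 and 39.3 CPM in NR GR-Con and 38.9 and 38.4 in NR GR-KO to 48.6 and 52.8 in DR GR-Con and 68.4 and 57.5 in DR GR-KO (0.57, SE 0.12, adjusted p = 3.28e-05). It also rose in L4 (0.31, adjusted p = 0.0197), a call lost without DR GR-KO male (0.146), NR GR-KO female (0.108) or NR GR-Con male (0.0978). Plxnc1 rose in L6CT (0.53, adjusted p = 0.00128) and Plxnb2 in L2/3 (0.46, adjusted p = 0.0129) by both tests, the latter lost without any of 4 libraries (up to 0.0972). By the likelihood ratio test alone, Plxnc1 was higher in Sst neurons (0.36), Plxna3 higher in L6CT (0.57) and Plxna2 lower in L6IT (-0.39). Each of these 3 was lost without any of 6 libraries. Plxna4, Plxnb1 and Plxnb3 were called in no type over both genotypes.

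Within each genotype the design had 2 libraries against 2. In GR-Con, 22 of 401 member pairs passed the likelihood ratio test for DR against NR (19 higher, 3 lower; 2.25% of all pairs, 1.41% higher and 0.840% lower), and 5 passed the quasi-likelihood test (0.495% of all). This count was 11 to 54 with 1 library left out (11 without NR GR-Con male, 38 and 54 without DR GR-Con female and male) and 34 with a sex term. In GR-KO, 48 of 432 passed (33 higher, 15 lower; 3.66%, 1.69% and 1.96% of all), and 9 passed the quasi-likelihood test (0.857%). This count was 8 without DR GR-KO male, 80 without NR GR-KO male and 80 with a sex term. The difference in numbers between the genotypes is no test of a difference in response, which is given by the interaction. The 2 comparisons share no library, but both are contained in the one over both genotypes.

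In GR-Con, 3 of the 5 calls by both tests were in L5IT. This type also had the highest share of all genes called by the quasi-likelihood test, 2.95%, against 0.495% over all types. Sema3e rose there from 11.8 and 13.1 CPM to 122 and 59.0 (2.87, SE 0.35, adjusted p = 1.60e-13, quasi-likelihood 0.00757) and Sema3c rose from 0.471 and 1.19 to 4.25 and 4.65 (2.40, SE 0.41, adjusted p = 3.12e-07, quasi-likelihood 0.0246). Plxna1 rose there from 10.6 and 8.23 to 16.9 and 16.4 CPM (0.82, adjusted p = 0.00154), a call lost without NR GR-Con female (0.199). Sema4g in L5IT went from 0.706 and 1.07 to 2.58 and 5.26 CPM (2.12, adjusted p = 0.00104) and was lost without NR GR-Con male (0.109). Sema3e fell in L5PT, from 245 and 239 to 118 and 147 CPM (-0.88, adjusted p = 5.38e-06, quasi-likelihood 0.0342). The other call by both tests was Sema5a in L5NP (0.83, adjusted p = 3.13e-05), lost without NR GR-Con female (0.0593). Markers of other types differed within L5IT: the 3 L4 markers (of which Rorb and Rspo1 are highest in astrocytes) summed to 788 and 896 CPM in NR GR-Con, 402 and 716 in NR GR-KO, 316 and 430 in DR GR-Con, and 320 and 479 in DR GR-KO, and the 3 L5NP markers to 7.06 and 6.56, 21.7 and 4.53, 21.1 and 17.2, and 33.1 and 11.8 CPM. In L4 nuclei Rorb was at 1516 CPM, against 8.12 for Scnn1a and 3.09 for Rspo1, so the L4 sum can follow mainly Rorb. L5NP is the type with most Sema3e, and the part of these other types was not tested.

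Nrp2 rose in several types in GR-Con by the likelihood ratio test: in L6CT from 1.65 and 1.80 to 7.44 and 13.8 CPM (2.62, adjusted p = 1.76e-09), in L6b from 35.2 and 35.8 to 61.6 and 85.0 CPM (1.04, adjusted p = 0.000653), in Lamp5 (1.10) and in Sst (1.30). In L2/3 it fell (-1.07, adjusted p = 9.65e-05). None of these Nrp2 calls passed the quasi-likelihood test (0.0591 to 0.287), and the L6b call was lost without NR GR-Con female (0.0717) or NR GR-Con male (0.137). The Sst and Lamp5 calls were lost without DR GR-Con male (0.155 and 0.309) or NR GR-Con male (0.608 and 0.0935). The remaining likelihood ratio calls in GR-Con were higher Sema5b (L6CT, L2/3 and oligodendrocytes), Nrp1 (L4 and L2/3), Sema5a (L4), Sema4g (L4 and L6CT), Sema6a (L2/3) and Sema3d (L5IT), and lower Sema5a (L5PT).

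In GR-KO the calls by both tests were Sema4a in L6CT (1.21), L6IT (0.86) and L4 (0.69), Nrp1 in L4 (1.61), Plxna1 in L6CT (1.20), Sema5b in OPC (0.44), and 3 in VLMC. In VLMC 19.9% of all 6109 genes tested were called by the likelihood ratio test and 15.0% by the quasi-likelihood test. Sema4a in L6IT went from 25.4 and 22.2 to 43.7 and 41.5 CPM (adjusted p = 9.38e-07) and in L4 from 11.7 and 11.1 to 17.5 and 17.6 CPM (adjusted p = 0.000632), the latter lost without DR GR-KO female (0.222) or DR GR-KO male (0.154). Sema5b in OPC, its highest type, went from 277 and 275 to 343 and 383 CPM (adjusted p = 0.0364, quasi-likelihood 0.00612). In VLMC, fibroblast-like cells of the meninges, Plxna4 fell from 288 and 238 to 49.6 and 100 CPM (log2 fold change -2, SE 0.37, adjusted p = 1.97e-06). Nrp2 there rose from 69.2 and 65.5 to 212 and 150 CPM (1.16, adjusted p = 0.00387), and Plxna2 from 545 and 580 to 1299 and 1141 CPM (0.86, adjusted p = 0.0326). The 7 neuronal markers in these VLMC nuclei (20, 47, 53 and 65 nuclei) were lower as well, at 6603 and 9051 CPM in NR and 1141 and 985 in DR. Other lists were higher in DR in the same nuclei, the 5 astrocyte markers at 1002 and 1050 against 2291 and 2466 CPM, the 2 Lamp5 markers at 66.4 and 80.8 against 325 and 184, and the 2 L6CT markers at 133 and 82.2 against 392 and 234. Their part in these results was not tested. The Nrp2 call was lost without DR GR-KO male (0.187), the Plxna2 call without any 1 of the 4 libraries (0.15 to 0.262) and the OPC call of Sema5b without 3 of the 4 (0.137 to 0.623).

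Further likelihood ratio calls in GR-KO, in order of p, were Sema5b in L6CT (1.75), Sema5a in L6IT (-1.28), Sema4d in L6IT (0.72), Sema3a in L5IT (-1.29) and oligodendrocytes (-1.40), Sema3f in L6CT (0.88) and L2/3 (1.28), Sema4d in L6CT (0.78), Plxnd1 in L2/3 (0.75), Plxna1 in L2/3 (0.94) and Sema7a in L2/3 (0.72). Then came Sema5b in oligodendrocytes (1.37), Sema3e in L2/3 (-0.87), Sema4d in L2/3 (0.76), Nrp2 in L4 (-1.16) and in Vip neurons (0.71), Sema4d in Lamp5 neurons (0.72), Sema4a in L5IT (0.83) and Sema5b in L6IT (0.58). Of the 48 calls, 6 kept an adjusted p below 0.05 without any 1 library, and without DR GR-KO male 8 member pairs were called in all.

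Genes that work with the family were counted the same way. Of 10 co-receptor or co-ligand genes and 26 cytoplasmic effectors, 48 of 478 pairs were called for DR against NR over both genotypes (38 higher, 10 lower; 10% against 5.24% of all pairs), and 25 by the quasi-likelihood test. Dpysl5, a collapsin response mediator protein in the Sema3A pathway, rose in L2/3 (1.56), L6IT (1.19), L6CT (1.16) and L4 (0.93) by both tests. Ptk7, a receptor-like co-receptor, rose in L2/3 (0.85) and L5NP (0.69), and Limk1, a kinase that inactivates cofilin, in L6CT (0.86). Cfl1, cofilin itself, fell in L2/3 (-0.58), L4 (-0.52) and L6CT (-0.46). Fyn, a Src-family kinase, rose in oligodendrocytes (0.62) and by 0.28 to 0.40 in Pvalb, L2/3 and L4 neurons, and Chl1, a co-receptor of Nrp1, in Pvalb neurons (0.59). In the 2 separate comparisons 19 of 474 pairs (GR-Con; 4.01% against 2.25% of all pairs) and 35 of 527 (GR-KO; 6.64% against 3.66%) were called. The quasi-likelihood test called 7 in either comparison.

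The third question was what the astrocyte vector did. With normal light, GR-KO differed from GR-Con in 8 of 431 member pairs by the likelihood ratio test (7 higher, 1 lower; 0.804% of all 225061 pairs, 0.491% higher and 0.313% lower). Of these, 4 were in astrocytes (3 higher, 1 lower; 27 members tested, 7.11% of all genes called there), 3 in oligodendrocytes (28 tested, 1.53% of all genes) and 1 in L5IT (26 tested, 0.209%). The quasi-likelihood test called 4 pairs (0.361% of all), all in astrocytes, where it called 5.15% of all genes, of which 3 were shared with the first test. In astrocytes Sema5b, Sema6a and Sema3a rose and Sema4b fell by the likelihood ratio test, and Sema6d rose by the quasi-likelihood test alone. The counts depended on the fit: 4 to 26 pairs were called with 1 library left out (21 without NR GR-KO male, 8 higher and 13 lower) and 23 with sex as a term.

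Sema5b in NR astrocytes was at 8.63 and 11.9 CPM in GR-Con and at 19.9 and 24.8 in GR-KO, without overlap (log2 fold change 1.06, SE 0.22, adjusted p = 7.70e-05, quasi-likelihood 0.0176). Sema6a was at 82.3 and 84.7 against 132 and 124 CPM (0.55, SE 0.14, adjusted p = 0.00187, quasi-likelihood 0.0114). Sema4b was at 102 and 126 against 75.5 and 78.5 CPM (-0.63, SE 0.16, adjusted p = 0.00228, quasi-likelihood 0.0197). The groups did not overlap in any of these, which adds nothing to the tests, since the pairs were picked by them on the same libraries. Sema6d, named because it passed the quasi-likelihood test alone, was at 1150 and 1103 against 1648 and 1541 CPM (0.44, SE 0.16, adjusted p = 0.066, quasi-likelihood 0.0178). Sema3a rose by the likelihood ratio test alone, from 5.07 and 5.97 to 9.60 and 9.41 CPM (0.72, adjusted p = 0.0347, quasi-likelihood 0.103). Plxnb1, the receptor for which astrocytes were the highest type, was not called (-0.35, adjusted p = 0.128), at 102 and 90.5 against 80.4 and 77.2 CPM. Under DR, where it was not called either, it was at 97.4 and 97.4 against 69.6 and 78.5 CPM. Every GR-KO library thus lay below every GR-Con library, but the share of all astrocyte genes that separate in this way was not counted.

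The astrocyte calls depended on single libraries. Sema5b was lost without NR GR-Con male (adjusted p = 0.057), Sema6a without NR GR-KO male (0.068) or NR GR-Con male (0.0889), Sema4b without NR GR-Con female (0.131), and Sema3a without any 1 of the 4 (0.115 to 0.449). The 7 neuronal markers were also higher in the astrocyte nuclei of NR GR-KO, at 996 and 1108 CPM against 644 and 559 in GR-Con, and their part was not tested. Under DR these markers ran at 629 and 658 CPM in GR-KO and 600 and 821 in GR-Con. The oligodendrocyte lineage led for Sema5b, Sema6a and Sema6d, and the part of its RNA in the astrocyte results was not tested either.

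**Figure D4:**
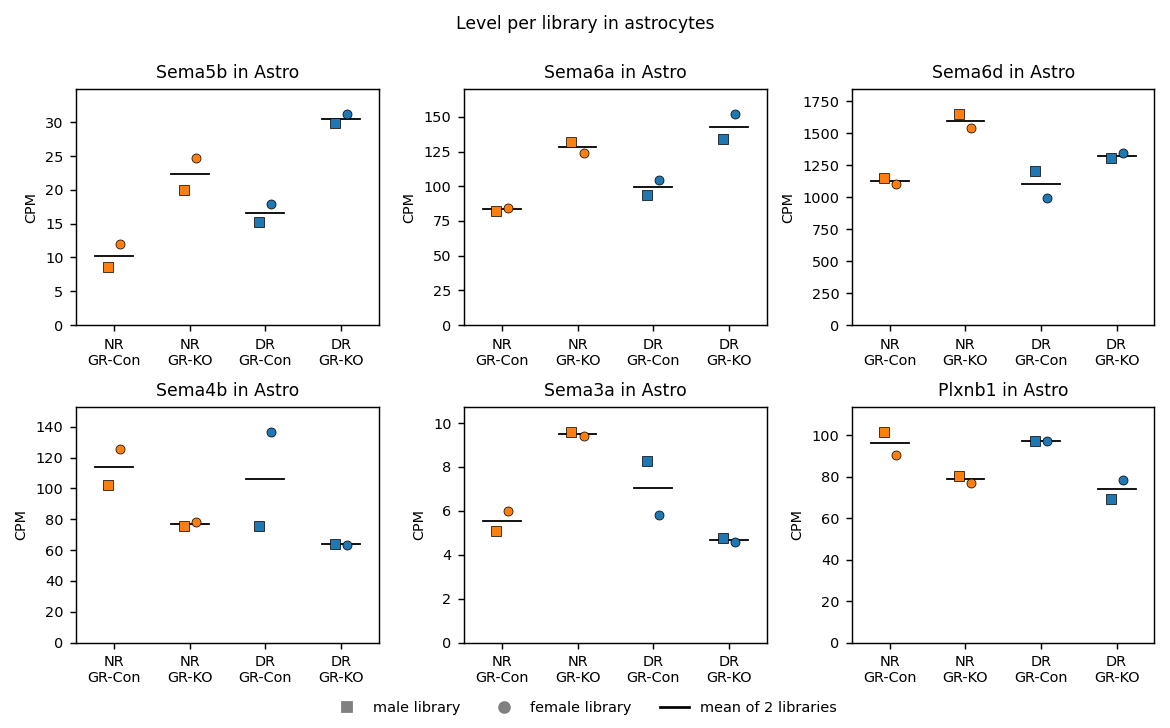
CPM of 6 members in the astrocytes of each library (squares male, circles female, orange NR, blue DR), with the mean of the 2 libraries of a group as a line. Sema5b and Sema6a lie higher in the GR-KO libraries than in the GR-Con libraries of the same rearing, Sema4b lies lower in the GR-KO libraries of either rearing, and Sema3a lies higher in GR-KO in NR and lower in DR, a difference between rearing conditions that was not called (adjusted p = 0.183).

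In NR oligodendrocytes Sema3a rose from 5.10 and 4.52 to 9.57 and 10.2 CPM (0.99, SE 0.25, adjusted p = 0.00744). Plxna4 rose there from 10.9 and 12.96 to 19.1 and 30.4 CPM (1.02, adjusted p = 0.0115), and Plxna2 from 13.2 and 9.03 to 18.8 and 20.6 CPM (0.75, adjusted p = 0.0274). None of the 3 passed the quasi-likelihood test (0.174 to 0.255), and each was lost without any of 3 of the 4 libraries. Each of these genes had its lowest level in oligodendrocytes, and the neuronal markers there were at 565 and 822 CPM in GR-KO against 321 and 267 in GR-Con. That part was not tested. In excitatory neurons Sema3e in L5IT was the lone NR call (2.51, adjusted p = 0.0494, quasi-likelihood 0.864), at 11.8 and 13.1 CPM in GR-Con and at 118 and 23.9 in GR-KO, and the 2 GR-KO libraries lay far apart. It was lost without NR GR-Con female (0.943) or NR GR-Con male (1). No inhibitory neuron pair was called.

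Under dark rearing, GR-KO differed from GR-Con in 7 of 398 member pairs by the likelihood ratio test (5 higher, 2 lower; 0.513% of all, 0.319% higher and 0.194% lower). No member pair, 0 in all, passed the quasi-likelihood test, against 0.00431% of all pairs, while 63 member pairs had an unadjusted likelihood ratio p under 0.05 and DESeq2 called 5. The count was 1 without DR GR-KO male and 1 without DR GR-KO female, 32 and 34 without DR GR-Con female and male, and 17 with a sex term. Sema7a rose in L5IT, from 13.9 and 13.3 CPM in GR-Con to 23.8 and 25.2 in GR-KO (0.86, SE 0.17, adjusted p = 0.000204), and in L4, from 17.6 and 19.9 to 31.9 and 26.7 CPM (0.67, SE 0.16, adjusted p = 0.00388). Sema5b in astrocytes was higher again, at 29.8 and 31.2 against 15.2 and 18.0 CPM (0.91, SE 0.24, adjusted p = 0.0226). The others were higher Sema3f in L6CT (0.75) and Sema4a in L4 (0.62), and lower Sema3d in Pvalb neurons (-1.04) and Sema3c in L5IT (-1.29). Each of the 7 was lost without at least 1 library. Sema7a in L5IT was lost without DR GR-KO female (0.157), Sema7a in L4 without DR GR-KO female (0.0781) or DR GR-KO male (0.582), and Sema5b in astrocytes without either of these libraries.

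Sema6a and Sema4b in DR astrocytes were not called. Sema6a stood at 93.9 and 105 CPM in GR-Con and 134 and 152 in GR-KO (0.55, SE 0.20, adjusted p = 0.262), and Sema4b at 75.7 and 137 against 64.3 and 63.3 (-0.70, SE 0.30, adjusted p = 0.529). Their log2 fold changes in NR were 0.55 and -0.63, and neither was called for a difference between rearing conditions. Of the co-receptors and effectors, 5 of 520 pairs were called in NR (0.962%, against 0.804% of all pairs) and 6 of 475 in DR (1.26% against 0.513%). The quasi-likelihood test called 2 of these genes' pairs in NR and 0 in DR. In NR astrocytes Farp1, a guanine exchange factor that acts with Plexin-A4, fell (-0.83, adjusted p = 1.35e-05), as did Mical2, a member of the Mical family of actin-oxidizing enzymes (-0.61, adjusted p = 0.00275), both by both tests.

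The last comparison asked whether the genotype difference was the same in light and darkness, as the NR difference minus the DR difference. It was called for 4 of 411 member pairs by the likelihood ratio test (3 positive, 1 negative; 0.181% of all pairs, 0.139% and 0.0423% by sign). The quasi-likelihood test called 0 (0.00276% of all), 55 pairs had an unadjusted p under 0.05, and DESeq2 called 3. With 1 library left out 1 to 13 pairs were called, and 9 with a sex term. All 4 were in L5IT or L4. Sema3e in L5IT was at 11.8 and 13.1 CPM in NR GR-Con and 118 and 23.9 in NR GR-KO, but at 122 and 59.0 in DR GR-Con and 51.8 and 37.5 in DR GR-KO. Sema3c in L5IT followed the same order, from 0.471 and 1.19 to 5.02 and 1.61 CPM in NR and from 4.25 and 4.65 to 1.11 and 2.44 in DR. Sema5a in L4 was higher in GR-KO in NR (1.96 and 2.04 against 1.20 and 0.971 CPM) and lower in DR (1.65 and 1.61 against 2.64 and 2.45). Sema7a in L4 was at 20.6 and 22.9 against 22.9 and 24.4 CPM in NR and higher in GR-KO in DR, as above. Each was lost without at least 3 of the 8 libraries, 1 at a time. NR GR-KO male, the library with most Sema3e in NR L5IT, also had the fewest L4 marker counts and the most L5NP marker counts there among the NR libraries, at the values given above.

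**Figure D5:**
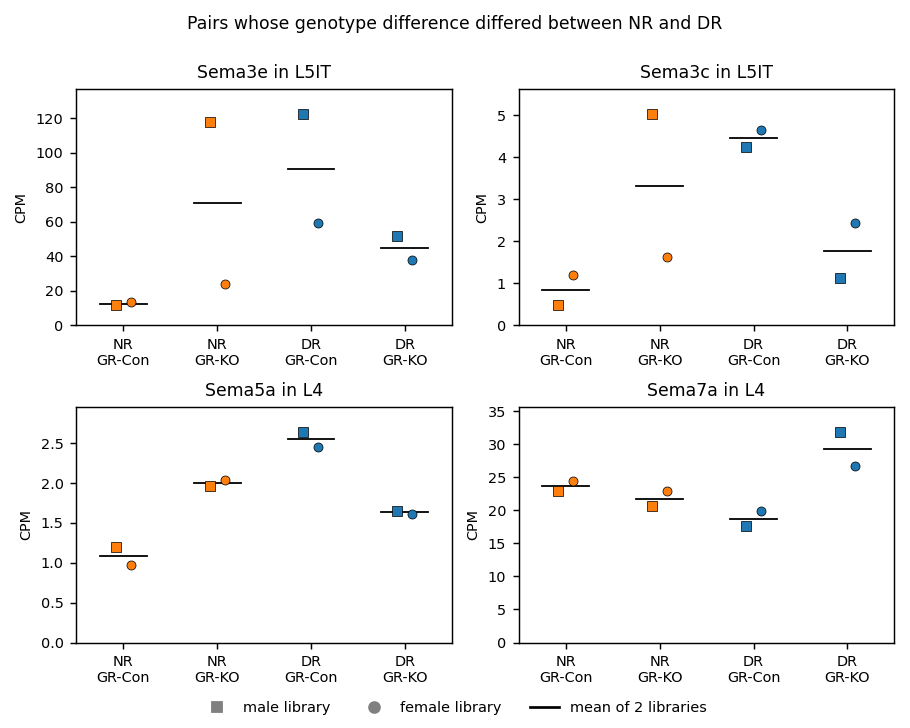
CPM in each library (squares male, circles female, orange NR, blue DR) for the 4 pairs whose genotype difference differed between NR and DR by the likelihood ratio test, with the mean of the 2 libraries of a group as a line. In the Sema3e and Sema3c panels the lowest group is NR GR-Con; in the Sema7a panel the DR GR-KO libraries are the highest.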

How the data were processed

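Per the labels and the study's methods, the authors sorted V1 nuclei, prepared 8 droplet libraries (10x 3′ kit), aligned reads to mm10 with Cell Ranger 8.0.1, filtered nuclei and removed predicted doublets, and annotated cell types with Seurat 5.3.0. They deposited a matrix of UMI counts per gene and nucleus, not normalized, and a cell table with the library, sex and cell type of each nucleus, which were used as given. In the cell table the authors also deposited the percent of mitochondrial UMIs, not used here.

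UMI counts were summed per library and cell type. CPM are these counts per 1000000 of the sum. Libraries are named by group and sex, because the cell table gives no replicate number, and nothing else ties libraries to batches. P-values rest on the spread between the 2 mice of each group, 1 male and 1 female. In fits without a sex term this spread includes any sex difference. A type entered a comparison with at least 10 nuclei in each library. Fits used edgeR 4.0.16 in R 4.3.3 with glmLRT, the test named in the study's methods, two-sided, and with filterByExpr, TMM and estimateDisp, which were chosen here. P-values were adjusted (Benjamini-Hochberg) over all genes tested in a type, never over the members alone. SE is the log2 fold change divided by the root of the likelihood ratio statistic. The quasi-likelihood test of edgeR and DESeq2 1.42.0 were alternatives, with another scaling, no filter, a sex term, a minimum of 50 nuclei, a fit of all 8 libraries and each library left out. The tests were tried on simulated data.

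The members, the gene lists and the comparisons were chosen with earlier results of these data known. All pairs called by the likelihood ratio test were named, except for DR against NR in GR-KO. There the pairs called by both tests were named, and then others in order of p. Values in every library were given for up to 10 per comparison that also passed the quasi-likelihood test or were called in the same direction in 2 or more types, and for pairs set beside them. Of 20 cell types, 15 to 18 could be compared; 30 of the 31 members passed the expression filter in at least 1 type, and Sema3g did not. Coordinates and promoters are on GRCm38.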

Additional observations from a re-analysis of the deposited data

Results flagged for a closer look

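For 4 pairs of gene and cell type the genotype difference in light and that in darkness differed by the test of the difference itself (the edgeR likelihood ratio test of the interaction, as NR difference minus DR difference on the log2 scale). These were Sema3e in L5IT (3.52, adjusted p = 0.0167), Sema3c in L5IT (3.30, adjusted p = 0.0331), Sema5a in L4 (1.47, adjusted p = 0.00589) and Sema7a in L4 (-0.80, adjusted p = 0.0395). None of the 4 passed the quasi-likelihood test, with adjusted p of 0.403 to 0.459. Each of the 4 was lost without at least 3 of the 8 libraries, left out 1 at a time.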

How the results depend on the processing

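All 135 calls kept their direction under every alternative that gave a value, but their number moved. The quasi-likelihood test called 4 member pairs for the genotype in NR, 0 for the genotype in DR, 5 for DR against NR in GR-Con, 9 in GR-KO, 25 over both genotypes and 0 for the interaction, against 8, 7, 22, 48, 46 and 4 by the likelihood ratio test. DESeq2 called 4 in NR for the genotype, and the fit of all 8 libraries called 5. With sex as a term the counts were 23 and 17 for the genotype in NR and DR, 34 and 80 for darkness in GR-Con and GR-KO, and 9 for the interaction. Leaving out 1 library at a time gave 4 to 26 and 1 to 34 calls for the genotype in NR and DR, 11 to 54 and 8 to 80 for darkness in GR-Con and GR-KO, 23 to 52 over both genotypes, and 1 to 13 for the interaction; a group left with 1 library was assumed to vary like the others. Without NR GR-KO male, the 21 NR genotype calls were 8 higher and 13 lower, against 7 and 1. Of the calls, 21 of 46 over both genotypes, 7 of 22 in GR-Con and 6 of 48 in GR-KO kept their significance without any 1 library, and 0 of the others did. The highest cell type was the same for 29 of 31 members with the mean over nuclei and for 25 with TMM scaling, which moved Plxna1, Plxna2, Plxnd1, Sema3a, Sema3e and Sema4g. With 1 library left out the highest cell type was the same for 28 to 31 members. With the replicate numbers of the labels, no paired analysis was possible because the library names do not carry them. Each group held 1 male and 1 female library, and the fits with sex as a term, given above, are blocked by sex. Genes of a few CPM, chandelier neurons and vascular types rest on few counts or nuclei, so smaller changes there were not detectable at this depth.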
